A study of Mus musculus with 2 samples.

Results

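Glycolysis splits glucose to pyruvate, gluconeogenesis runs most of the same steps backwards to make glucose, and the pentose phosphate pathway draws on the shared intermediate glucose 6-phosphate to make NADPH and ribose phosphate. The liver does all of these, storing and burning glucose after a meal and releasing it during a fast. Insulin, acting in part through the Akt kinases, is known to switch hepatocytes from glucose release to glucose use. The 38 genes described here were listed for these pathways. They cover glucose transporters, the kinases and phosphatases that oppose each other, the reversible enzymes between them, the pentose phosphate enzymes, and the entry enzymes for fructose and sorbitol. They were found as rows of the deposited gene table that carry exactly these names. Of the 38 genes, 37 had such a row among 23283 rows in all, 36 had a usable status and 33 were measured, meaning 1 FPKM or more in at least 1 library. FPKM is a fragment count scaled to transcript length and to the size of the library.

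The livers came from 6-month-old male C57Bl/6 mice that were perfused before collection. The control mice were Akt1F/F;Akt2-/-, labelled as having loxP-flanked Akt1 alleles and as null for Akt2, a label that both groups carry. The other mice were Akt1F/F;Akt2-/-;Alb-Cre, which also carried Cre recombinase under the albumin promoter, active in hepatocytes. Messenger RNA of 4 livers per genotype was pooled and sequenced as 1 library, so every gene has 1 value per genotype, no spread between mice is known and no test between genotypes can be made.

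The sources used here give no read totals. Judged by the spacing of very small values, sequencing of Alb-Cre liver ran about 1.13 times deeper than that of control liver. Akt1 had 23.7 FPKM in control liver and 17.1 in Alb-Cre liver, and Akt2 had 37.5 and 33.5 FPKM. The Akt2 level thus stood above that of Akt1 in both libraries, although both are labelled null for Akt2, and the gene-level values do not bear that label out. They cover whole genes, and the exons removed by the alleles are not stated, so transcripts that lack some exons cannot be told apart from intact ones. Hepatocyte transcripts dominated both libraries, with transthyretin Ttr at 6489 and 3627 FPKM and fibrinogen Fgb at 2659.8 and 2922 FPKM. Macrophage markers were more abundant in Alb-Cre liver. Their 15 measured genes summed to 208 FPKM in control liver and 509 FPKM in Alb-Cre liver, and 9 of the 15 were at least 2-fold higher, against 3.75% of all 11406 genes measured at 1 FPKM or more.

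As a group the pathway genes moved little, with a few exceptions that all lay on the higher side. Differences are given as log2((Alb-Cre FPKM + 1)/(control FPKM + 1)), called here the log2 ratio, and a gene is called higher or lower at 2-fold, a log2 ratio of 1 or -1. Of the 33 measured genes, 3 were called higher, Pfkp, Pck2 and G6pc, where 3.75% of all 11406 measured genes were. None of the 33 were called lower, against 1.83% of all measured genes. Pfkp and Pck2 reached 1 FPKM only in Alb-Cre liver, as did Hk1, so such genes could enter the count only by being higher there. G6pc, with a log2 ratio of 1.04, lay just inside the limit and Aldoa, with 0.93, just outside it. At a limit of 1.5-fold, 6 genes were higher, against 8.87% of all measured genes, the 3 additions being Aldoa, Hk3 and Gpi1, and 0 were lower, against 5.8%. The median log2 ratio was 0.11 over the 33 genes and -0.06 over all measured genes. Of the 33, 19 had a log2 ratio above 0, as did 41.2% of all measured genes. The median was -0.13 among genes that reached 10 FPKM in each library. With ratios centred on that value, the share of higher genes among all calls went from 67.2% to 78.0%. Aldoa was also called higher, making 4 of the 33, against 4.94% of all measured genes. Then 23 of the 33 genes lay above 0, but the median over all measured genes was 0.07, so most of these lay above 0 as well.

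Of 14868 rows with status OK, 0.673% were called different in the authors' deposited table, and none of the 36 pathway genes with that status were. The lowest q-values among them in the authors' deposited table were 0.593 for Pck2 and 0.864 for Aldoa, and it was 0.999 for the other 34. These q-values compare the 2 libraries, not the genotypes.

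**Figure D1:**
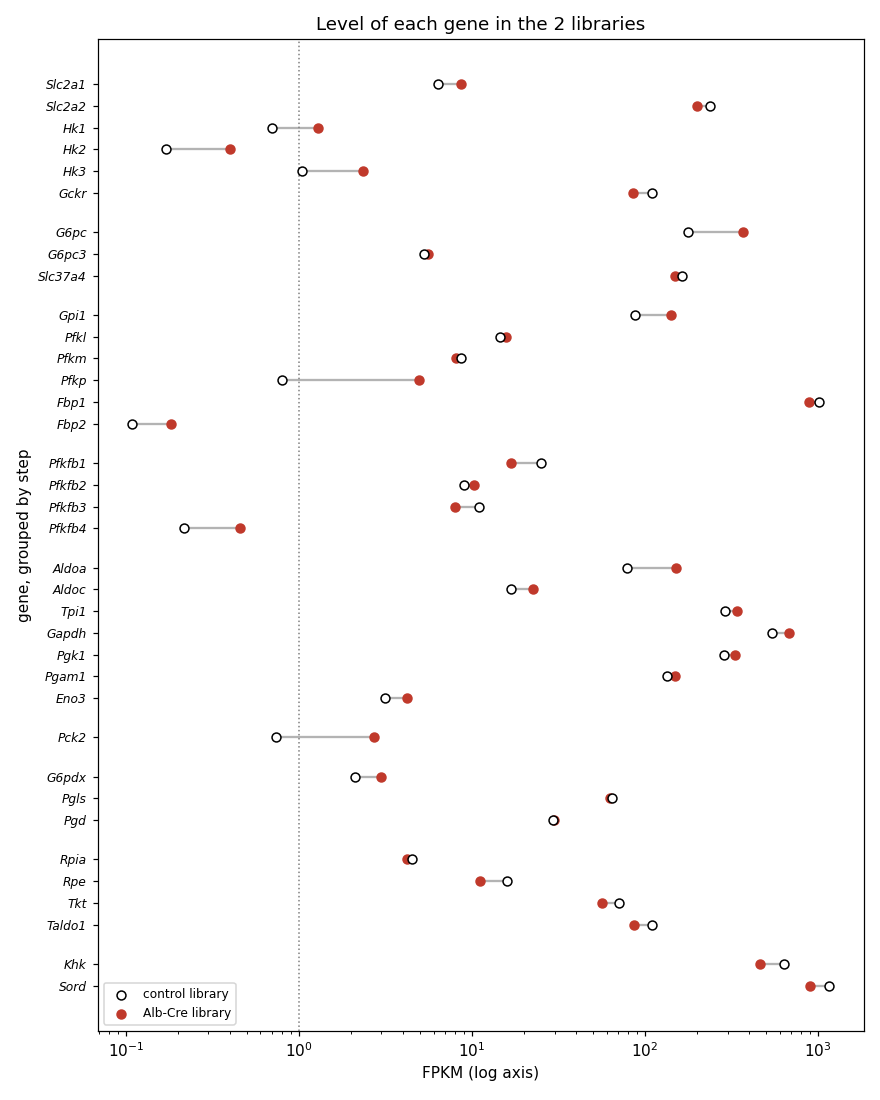
Level of each of the 36 genes with a usable status, in FPKM on a log axis, grouped by step; open circles are the control library, filled circles the Alb-Cre library, each 1 pooled library, and the dotted line marks 1 FPKM. Levels span from 0.109 FPKM for Fbp2 to 1149 FPKM for Sord, both in control liver, and the widest gap between circles is that of Pfkp.

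Among genes of glucose entry and phosphorylation, the abundant hepatocyte genes were lower in Alb-Cre liver and the scarce ones higher, and no log2 ratio reached the 2-fold limit. Slc2a2 encodes GLUT2, the high-capacity glucose transporter of hepatocytes. It had 236 FPKM in control liver and 199 in Alb-Cre liver, a log2 ratio of -0.24. Slc2a1 encodes GLUT1, a transporter of most other cells, and had 6.33 and 8.64 FPKM (log2 ratio 0.40). Slc2a2 therefore stood 37.3 times above Slc2a1 in control liver and 23.1 times above it in Alb-Cre liver. Gckr encodes a nuclear protein that restrains glucose phosphorylation in hepatocytes when fructose 6-phosphate is plentiful. Its level was 109 FPKM in control liver and 84.6 in Alb-Cre liver, a log2 ratio of -0.36. The low-Km hexokinases, which most tissues other than hepatocytes use to trap glucose, were scarce in both libraries and higher in Alb-Cre liver. Hk1 had 0.696 and 1.29 FPKM (log2 ratio 0.43), and Hk3, the form best known from myeloid cells, had 1.04 and 2.34 FPKM (0.71, or 2.25 times as high with no pseudocount). Hk2, a form of muscle and fat, had 0.171 and 0.399 FPKM, under the minimum in both libraries. The summed level of these 3 hexokinases was 1.90 FPKM in control liver and 4.03 in Alb-Cre liver, 2.11 times as high. Macrophage markers were also higher. Their measured sum was 2.44 times as high in Alb-Cre liver, the 15 log2 ratios ran from 0.52 to 1.95, and no macrophage marker was listed at 0. The 3 measured neutrophil markers summed to 4.58 and 19.2 FPKM. Nearly all of that rise was in S100a8, with 2.01 and 9.60 FPKM, and S100a9, with 1.67 and 8.55, while Cxcr2 had 0.898 and 1.03. The part of these cells in the hexokinase values was not tested, and in pooled bulk tissue more cells of a type and more RNA per cell cannot be told apart.

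At the last step of glucose release the main catalytic subunit was higher in Alb-Cre liver, while its transporter and a second catalytic subunit differed little. G6pc encodes the catalytic subunit of glucose-6-phosphatase, which frees glucose from glucose 6-phosphate inside the endoplasmic reticulum and is a classic insulin-repressed gene. It had 178 FPKM in control liver and 367 FPKM in Alb-Cre liver, 2.07 times as high, which took it from the 94.5th to the 97.5th percentile of measured genes. In GENCODE it lies on mm10 chromosome 11 from 101367561 to 101377903 and has 5 exons. Slc37a4, the transporter that carries glucose 6-phosphate to the catalytic site, had 162 and 149.7 FPKM (log2 ratio -0.12, and 0.02 with centred ratios). G6pc3, a catalytic subunit found in most tissues, had 5.29 and 5.57 FPKM (0.06). There were thus 1.10 FPKM of G6pc for each FPKM of Slc37a4 in control liver and 2.45 in Alb-Cre liver.

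The 3 genes called higher are shown by their promoters, since insulin is known to act on G6pc through a promoter element that FoxO factors bind. The windows are RefSeq sequence of GRCm38.p6, the assembly also called mm10, from 250 bases before to 50 bases after the RefSeq start of the gene, printed on the strand of the gene. They lie at chr11:101367466-101367765 on the plus strand for G6pc, chr14:55540016-55540315 on the plus strand for Pck2 and chr13:6648722-6649021 on the minus strand for Pfkp. That start is at 101367716 for G6pc, 155 bases downstream of the start that GENCODE gives, at the same base as in GENCODE for Pck2, and 6 bases downstream of it for Pfkp. Capitals mark TGTTTTG, the core of the insulin response element.
G6pc: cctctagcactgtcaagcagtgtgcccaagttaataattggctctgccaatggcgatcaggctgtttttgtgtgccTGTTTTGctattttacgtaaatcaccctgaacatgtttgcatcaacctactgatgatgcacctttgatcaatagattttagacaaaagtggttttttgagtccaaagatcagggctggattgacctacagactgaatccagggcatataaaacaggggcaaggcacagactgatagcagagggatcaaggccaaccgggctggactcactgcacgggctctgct
Pck2: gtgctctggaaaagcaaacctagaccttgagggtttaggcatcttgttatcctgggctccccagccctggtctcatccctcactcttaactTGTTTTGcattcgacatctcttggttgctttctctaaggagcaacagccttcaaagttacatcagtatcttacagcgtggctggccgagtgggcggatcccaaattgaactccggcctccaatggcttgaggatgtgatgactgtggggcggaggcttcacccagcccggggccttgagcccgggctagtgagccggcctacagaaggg
Pfkp: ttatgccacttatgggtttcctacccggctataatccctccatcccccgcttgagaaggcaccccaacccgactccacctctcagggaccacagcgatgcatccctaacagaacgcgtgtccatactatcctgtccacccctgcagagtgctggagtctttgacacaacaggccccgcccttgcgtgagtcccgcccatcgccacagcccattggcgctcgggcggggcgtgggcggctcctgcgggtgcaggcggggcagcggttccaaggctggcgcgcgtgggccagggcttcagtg

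The core TGTTTTG, searched on both strands, begins 174 bases before the RefSeq start in G6pc and 159 bases before it in Pck2, and the Pfkp window does not hold it. It occurs in 6.28% of all 32851 promoter windows of this length and in 4 of the 56 windows of the 38 genes, or 7.14%, those of G6pc, Pck2, Gckr and Fbp2. Among these, Gckr had a log2 ratio below 0 and Fbp2 was under 1 FPKM. The alternative core TATTTTG is in 4.36% of all windows and in that of Hk3, and the FoxO core GTAAACA is in 3.65% and in 1 window of Aldoc. The E-box CACGTG, a motif bound by the carbohydrate-responsive factor ChREBP and by many other factors, is in 7.15% of all windows and in 6 of the 56, 1 each of Khk, Fbp2, G6pc3, Pfkm, Pfkfb2 and Pfkfb3. The cyclic AMP response element TGACGTCA is in 1.79% of all windows and in 0 of the 56. The windows differ in base composition, with 46.7% G and C in G6pc, 55% in Pck2 and 64.7% in Pfkp, where the median of all windows is 52.7%.

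The hexose phosphate steps held the largest fold difference, in an isozyme that is scarce in liver. Phosphofructokinase commits fructose 6-phosphate to glycolysis, and Fbp1, fructose-1,6-bisphosphatase, reverses it in gluconeogenesis. Pfkp, the platelet form of phosphofructokinase, lies on mm10 chromosome 13 from 6579768 to 6648777 on the minus strand. It had 0.796 FPKM in control liver and 4.93 in Alb-Cre liver. That is 6.19 times as high, with a log2 ratio of 1.72. Pfkl, the liver form, had 14.5 and 15.7 FPKM (log2 ratio 0.11), and Pfkm, the muscle form, had 8.68 and 8.14 FPKM (-0.08, and 0.05 with centred ratios). The share of Pfkp in the summed phosphofructokinase level was 3.32% in control liver and 17.1% in Alb-Cre liver, while that of Pfkl was 60.5% and 54.6%. Their sum was 24.0 and 28.8 FPKM. Fbp1 was far above them in both libraries, with 1004 and 887 FPKM (log2 ratio -0.18). For each FPKM of the 3 phosphofructokinases there were 41.9 FPKM of Fbp1 in control liver and 30.8 in Alb-Cre liver. Fbp2, the muscle bisphosphatase, had 0.109 and 0.182 FPKM. Gpi1, the isomerase that links glucose 6-phosphate and fructose 6-phosphate, had 87.3 and 141 FPKM, 1.61 times as high (0.68). Pfkp shares 748 exonic bases with Pitrm1 on the opposite strand, and whether the reads were counted by strand is not given in the sources used here. Pitrm1 itself had 11.36 FPKM in control liver and 11.40 in Alb-Cre liver.

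**Figure D2:**
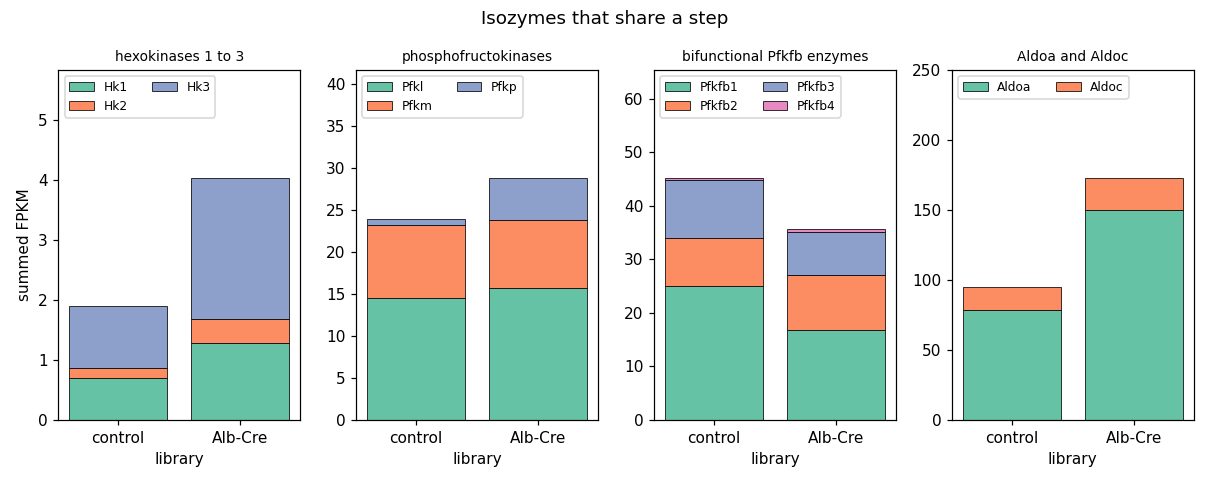
Summed FPKM of isozymes that share a step, stacked by gene, in the control and the Alb-Cre library; each bar is 1 pooled library, and the panels have separate axes that start at 0. The sums of hexokinases 1 to 3 and of Aldoa and Aldoc are higher in Alb-Cre liver, at 4.03 against 1.90 and 173 against 95.4 FPKM, while that of the Pfkfb enzymes is lower, at 35.6 against 45.1.

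Genes for the bifunctional Pfkfb enzymes, which make and break fructose 2,6-bisphosphate, the signal that speeds phosphofructokinase and blocks fructose-1,6-bisphosphatase, went both ways. Pfkfb1, the form of liver and muscle that glucagon signalling turns into a phosphatase, had 24.99 FPKM in control liver and 16.8 in Alb-Cre liver, the lowest log2 ratio of all 33 measured genes at -0.55. Pfkfb3, an inducible form with strong kinase activity, had 10.9 and 8.03 FPKM (-0.40). Pfkfb2, best known from heart, where Akt phosphorylates it, had 8.97 and 10.3 FPKM (0.18). Pfkfb4 had 0.218 and 0.458 FPKM, under the minimum. Pfkfb1 made up 55.4% of the summed Pfkfb level in control liver and 47.2% in Alb-Cre liver. Pfkfb2 went from 19.9% to 28.9%.

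All 7 measured genes of the reversible steps from fructose 1,6-bisphosphate to phosphoenolpyruvate had log2 ratios above 0, most of them slightly, where 41.2% of all measured genes did. Their median log2 ratio was 0.33 and 0 were called. The largest difference was that of Aldoa, the aldolase of muscle and of many other tissues. It had 78.5 FPKM in control liver and 150.4 in Alb-Cre liver, 1.92 times as high. Aldoc, the brain aldolase, had 16.9 and 22.4 FPKM (log2 ratio 0.39). Tpi1, triose phosphate isomerase, had 291 and 338 FPKM (0.21), and Gapdh, which oxidises glyceraldehyde 3-phosphate, had 539 and 677 FPKM (0.33). Pgk1, which makes the first ATP of the pathway, had 286 and 330 FPKM (0.21), and Pgam1, the mutase that follows, had 134 and 149 FPKM (0.16). Eno3, the muscle enolase, had 3.13 and 4.23 FPKM (0.34). Eno1, the main enolase of liver, had no row of its own and was not counted. A row that joins it to Gm5506, a near-identical copy that RefSeq names Eno1b, had 197 and 238 FPKM (0.27).

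Near-identical sequences limit some of these values. Gapdh had 71 other annotated transcripts or pseudogenes that match at least 50% of its transcript at 95% identity or more, Eno1 had 3 and Pgk1 had 2, while a search of the other 35 genes found 0. Of the Gapdh copies, 3 had rows of their own, at no more than 2.00 FPKM in either library. Exons of 16 of the 38 genes overlap an exon of another annotated gene, and in 14 of them one on the opposite strand, such as 741 bases of Gpi1 with Gm26762. All 10 skeletal muscle markers were under 1 FPKM in both libraries. The highest was Mylpf, with 0.895 FPKM in control liver and 0.926 in Alb-Cre liver, followed by Tnni2 with 0.0866 and 0.223. Myh1, Myh2, Myh4 and Mb were listed at 0 in both libraries and Ckm at 0.00569 and 0.0101 FPKM. Other marker lists went both ways. Macrophage and neutrophil sums were higher in Alb-Cre liver, as above. Lymphocyte genes went from a sum of 3.49 to 9.72 FPKM, but all 6 measured were under 1 FPKM in control liver. They could enter the sum only by being higher in Alb-Cre liver, so its direction was fixed in advance. Adipocyte genes went from 20.78 to 26.86 FPKM through Fabp4 alone, with 11.8 and 25.4 FPKM. The other measured adipocyte genes were lower, Cfd with 6.70 and 0 FPKM and Cidec with 2.26 and 1.44. Endothelial genes went from 101 to 141 FPKM, with Clec4g at 46.96 and 65.56, while Stab2 was at 0.432 times the control level. Stellate and fibroblast genes went from 113 to 190.3 FPKM, mostly Dcn with 91.46 and 155.1. Hepatocyte, bile duct and red cell sums were lower, at 0.863, 0.967 and 0.381 times the control level. Ttr, at 0.559 times the control level, fell by more FPKM than the whole hepatocyte sum did. Over the 8 measured hepatocyte genes the median log2 ratio was -0.03, against -0.06 over all measured genes, with 3 above 0 and 5 below. The red cell sum was nearly all Alas2, with 116.6 and 41.8 FPKM, while Hbb-b2 had 1.15 and 2.98. The part of these cell types in the levels of Aldoa and the other genes was not tested.

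**Figure D3:**
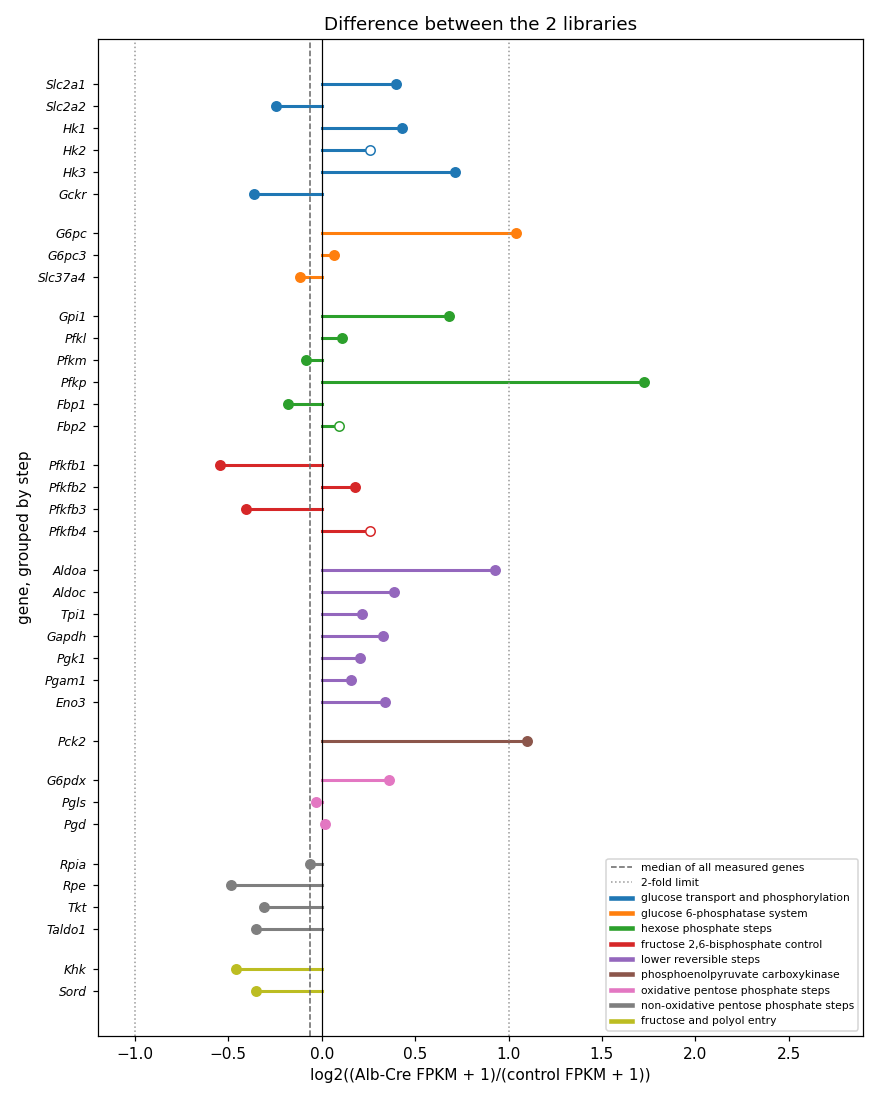
Log2 ratio of each gene with a usable status, grouped and coloured by step; open circles are genes under 1 FPKM in both libraries, dotted lines mark the 2-fold limits and the dashed line the median of all measured genes, -0.06. The 7 genes of the lower reversible steps all lie to the right of 0, and Pfkp, Pck2 and G6pc lie beyond the right-hand limit.

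Phosphoenolpyruvate carboxykinase, which opens gluconeogenesis from pyruvate and amino acids, could be read for its mitochondrial form alone. Pck2, the minor form in mouse liver, lies on mm10 chromosome 14 from 55540266 to 55551242. It had 0.739 FPKM in control liver and 2.73 in Alb-Cre liver, 3.70 times as high, with a log2 ratio of 1.10. The cytosolic Pck1 was listed at 986 and 0 FPKM with the status HIDATA, which marks a locus with too many fragments to estimate, and was set aside.

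None of the pentose phosphate genes were called. In the oxidative branch, which makes NADPH, 2 of 3 genes had log2 ratios above 0. G6pdx, glucose-6-phosphate dehydrogenase and the gate of the branch, had 2.11 FPKM in control liver and 2.98 in Alb-Cre liver (log2 ratio 0.36). Pgls, the lactonase, had 64.5 and 63.1 FPKM (-0.03), and Pgd, 6-phosphogluconate dehydrogenase, had 29.5 and 30.0 FPKM (0.02). Summed over these 3 genes the level was 96.1 and 96.0 FPKM, nearly all of it from Pgls and Pgd. G6pdx was the scarcest of them and shares 418 exonic bases with Ikbkg on the opposite strand, a gene at 18.5 and 12.6 FPKM. In the non-oxidative branch, which moves carbon between sugars of different length, all 4 genes had log2 ratios below 0, as did 58.8% of all measured genes. Taldo1, transaldolase, had 109 and 85.7 FPKM (-0.35), and Tkt, transketolase, had 70.4 and 56.6 FPKM (-0.31). Rpe, the ribulose phosphate epimerase, had 15.9 and 11.1 FPKM (-0.49), and Rpia, the isomerase, had 4.48 and 4.24 FPKM (-0.06). The sum of the 4 was 200.3 FPKM in control liver and 158 in Alb-Cre liver, 0.787 times as high. With centred ratios the median of the 4 was -0.20 and Rpia turned to 0.07, and after scaling to equal sums 3 of the 4 were still below 0.

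Both entry enzymes for other sugars were abundant and lower in Alb-Cre liver. Khk, ketohexokinase, which phosphorylates fructose, had 635 FPKM in control liver and 461 in Alb-Cre liver (log2 ratio -0.46). Sord, sorbitol dehydrogenase, which turns sorbitol into fructose, had 1149 and 901 FPKM (-0.35). Khk was at 0.726 and Sord at 0.784 times the control level, and both stayed below 0 under either rescaling.

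Other genes of the same pathways, listed alongside, gave the surroundings of these enzymes. Their counts stand against 3.75% of all measured genes called higher, 1.83% called lower and a median of -0.06, and in lists this short a count of 1 or 2 does not set a list apart. Of 12 measured further glycolytic genes, 1 was called higher (8.33%) and 2 lower (16.7%), around a median of -0.09. The higher gene was Ldhb, the heart type subunit of lactate dehydrogenase, with 2.39 FPKM in control liver and 80.8 in Alb-Cre liver, a log2 ratio of 4.59. Ldha, the subunit that dominates in liver, had 537 and 506 FPKM (-0.09), so that it stood 225 times above Ldhb in control liver and 6.26 times above it in Alb-Cre liver. One of the lower genes was Pklr, liver pyruvate kinase, with 217 and 101 FPKM (-1.09). Genes that feed carbon into gluconeogenesis gave 1 called higher (6.25%) and 0 lower of 16 measured. The called gene was Got1, the cytosolic aspartate aminotransferase, with 155 and 470.3 FPKM (1.59). Further pentose phosphate and NADPH genes all lay below 0, 11 of 11 measured against 58.8% of all measured genes, with a median of -0.34. Malic enzyme Me1, another source of cytosolic NADPH, was the 1 called lower, 9.09% of that list (177 and 72.1 FPKM, -1.29).

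Among 16 measured genes of fructose, polyol and galactose handling, 0 were called higher and 1 lower (6.25%), the aldehyde dehydrogenase Aldh1a1 with 1045 and 449 FPKM (log2 ratio -1.22). The median of that list was -0.10. Transcriptional regulators of glucose genes gave 2 called higher and 2 lower of 30 measured, 6.67% each, with a median of -0.11. Ppargc1a, a coactivator that fasting induces, had 2.96 FPKM in control liver and 12.5 in Alb-Cre liver (1.77), and the salt-inducible kinase gene Sik1 had 8.84 and 28.8 FPKM (1.60). The lipogenic factor gene Srebf1 had 158 and 65.6 FPKM (-1.25), and Onecut1, a hepatocyte transcription factor, had 21.5 and 7.21 FPKM (-1.45).

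**Figure D4:**
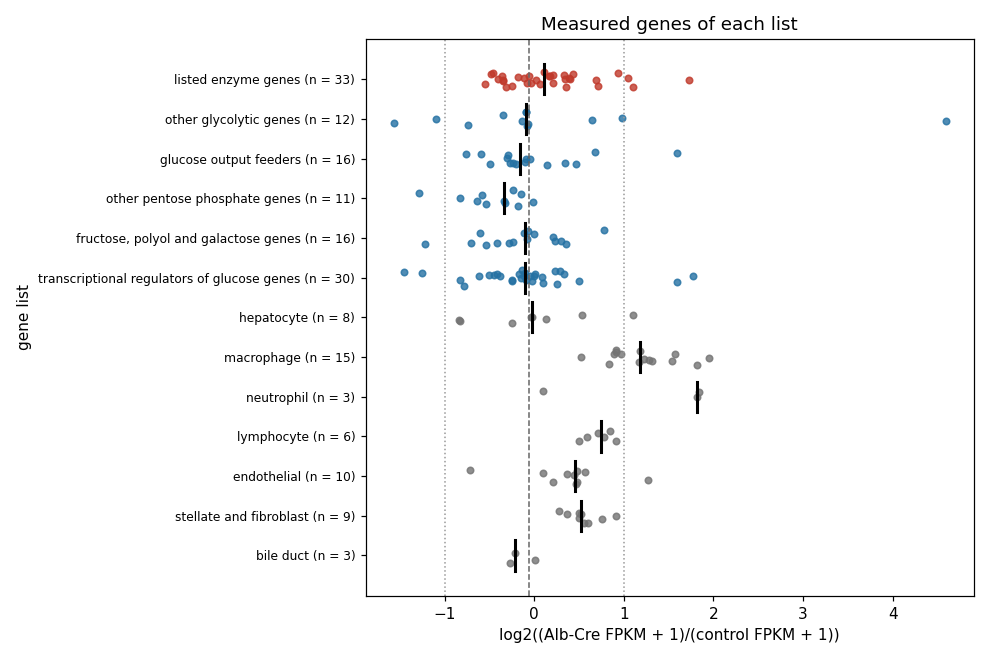
Log2 ratio of each measured gene in the 33 listed enzyme genes (red), in 5 lists of related genes (blue) and in 7 cell type marker lists (grey); vertical bars are list medians, dotted lines the 2-fold limits and the dashed line the median of all measured genes. The enzyme genes spread from -0.55 to 1.72 around a median of 0.11, while macrophage markers have a median of 1.19 and Ldhb stands apart at 4.59.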

How the data were processed

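Liver mRNA of 4 mice per genotype was pooled into 1 library, per the labels' protocols. FastQC, TopHat2 2.0.8, Cuffdiff 2.1.1 and the build mm10 are named, without roles, per the submitters' processing notes. The authors deposited a gene table with an FPKM value per library and a p-value, q-value and status per gene, per the file headers. The library scaling, annotation and strandedness are not given in the sources used here.

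Rows were matched to the listed names exactly, and rows of status HIDATA or FAIL were set aside. A gene was measured with status OK and 1 FPKM or more in at least 1 library. Log2 ratios used a pseudocount of 1 FPKM, which understates the fold of weakly expressed genes. No test was made, because each genotype has 1 library, and counts called, and counts above or below 0 by list, are read against the same shares over all measured genes. Relative depth came from 2677 rows under 0.1 FPKM, whose ratios gather near whole-number ratios, and assumes scaling by fragment totals only. At the chosen depth 38.0% of these rows lay near such a ratio, against a median of 12.8% over the depths tried. Members, lists and rules were chosen with earlier results of these data known. All 38 genes are named, and of related lists those past 2-fold. Of the marker lists, some of the most abundant genes, some near 0 and some that did not follow the sum of their list are named. Some genes of the related lists, one of them past 2-fold, are counted but not reported here. Gene positions are those of GENCODE vM21, counted from 1; promoters are RefSeq, and all 38 genes matched. Copies were sought with BLAST 2.17.0 among GENCODE transcripts. The calling of genes was checked on simulated libraries. Python 3.11.15, pandas 2.3.3, numpy 2.4.6 and matplotlib 3.10.9 were used.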

Additional observations from a re-analysis of the deposited data

How the results depend on the processing

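Each genotype is 1 pooled library, so the spread between mice is unknown and no library could be left out. No paired analysis was possible because there is 1 library per genotype. The count of genes called higher, 3, was 4 with a pseudocount of 0.1 FPKM (Hk3 added), after scaling the libraries to equal sums, and after centring on the genes that reached 10 FPKM in each (Aldoa added each time). The share of all measured genes called higher, 3.75%, moved too, to 6.74%, 4.56% and 4.94% in that order. The count was 1, G6pc, with a pseudocount of 5 FPKM, with 5 FPKM as the minimum and with 1 FPKM required in each library. The last was chosen after seeing the data, because Pfkp and Pck2 are weakly expressed. In these settings 1.56%, 3.66% and 2.39% of all measured genes were called higher. A limit of 1.5-fold gave 6, against 8.87% of all measured genes, and a limit of 4-fold gave 0, against 1.03%. The count called lower was 0 under every alternative run. Over all measured genes the share called lower ran from 0.39% at the 4-fold limit to 5.8% at the 1.5-fold limit. The median log2 ratio of 0.11 was 0.22 with rescaled libraries, 0.24 with centred ratios and -0.0059 with a minimum of 5 FPKM, where its sign turned; under the other alternatives it moved by 0.1 or less. Slc37a4, Pfkm, Pgls and Rpia changed sign with rescaled libraries and with centred ratios, and no other gene of the 36 did so under any pseudocount or scaling. Depth limits the genes under 1 FPKM most, and their counting error could not be given.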
